A study of Homo sapiens with 9 samples.

Results

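Aminoacyl-tRNA synthetases attach each amino acid to its transfer RNA (tRNA), the step that supplies the ribosome with charged tRNA. Animal cells keep separate nuclear genes for the cytosolic enzymes and for the mitochondrial enzymes, the latter named with a final 2, and several cytosolic enzymes sit together in a multi-synthetase complex held by the scaffold proteins AIMP1, AIMP2 and EEF1E1. Uncharged tRNA activates the kinase GCN2 (EIF2AK4), which raises translation of the transcription factor ATF4, and ATF4 with C/EBP proteins binds short elements in the promoters of amino acid response genes, cytosolic synthetases among them.

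The members described here were protein-coding genes chosen by symbol: those of 1 or 2 letters followed by ARS, with or without a final 2, together with FARSA, FARSB, PSTK, AIMP1, AIMP2 and EEF1E1. The rule found 40 genes among the 31558 of the count table, of which 17201 were protein-coding. They were 19 cytosolic synthetases, 17 mitochondrial synthetases, the 3 scaffold proteins and PSTK, a kinase of the selenocysteine tRNA route. GARS and KARS also encode the mitochondrial enzyme for their amino acid and were counted as cytosolic. EPRS, which charges both glutamate and proline tRNA, does not have a name of that form and is described with the related genes.

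The data are RNA-seq of HCT116, a human colorectal carcinoma cell line, in 3 groups with 3 biological replicates each. In CRLM1-OE the cells stably overexpressed the long non-coding RNA CRLM1 (LINC01767), in Ctrl they carried the empty plasmid, and in Anti they carried a plasmid with the antisense sequence of CRLM1. The paper's methods name a pTSB vector, used for stable lines in a lentiviral form with GFP and puromycin selection. Its results call the cells of this RNA-seq transfected. Neither the labels nor the methods say whether a line was 1 clone. Since CRLM1-OE is compared with Ctrl and with Anti, and Anti with Ctrl, every pair of comparisons shares the samples of 1 group.

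The samples held between 33302292 and 44514692 counts each, and the lowest count of any member in a sample was 169, for EEF1E1. The CRLM1 gene, listed as RP4-710M16.2, had 32751 to 38704 counts in CRLM1-OE, 0 in every Ctrl sample and 1540 to 1951 in Anti. Since strand handling is not given in the sources used here, sense and antisense reads cannot be told apart in the Anti counts. Of the 8 epithelial markers, EPCAM, CDH1, KRT8, KRT18 and KRT19 were between 19.9 and 3257 FPKM (fragments scaled to gene length and to the mapped fragments of the sample), while the intestinal genes VIL1, CDX1 and LGALS4 were at most 0.07 FPKM in any sample. The fibroblast markers summed to 2.03 to 2.48 FPKM in CRLM1-OE, 1.15 to 1.26 in Ctrl and 1.25 to 1.38 in Anti. Nearly all of it was COL1A1. Of the 5 markers, COL3A1 and DCN were at most 0.01, and COL1A2 and LUM were not among the genes with FPKM values. The leukocyte markers summed to 1.85 to 2.09 FPKM in CRLM1-OE, 1.56 to 1.75 in Ctrl and 1.33 to 1.47 in Anti. Most of it was CD68, at 1.3 to 2.02 FPKM. Of the 4 markers, CD14 was at most 0.17, PTPRC at most 0.01, and CD3E was not among the genes with FPKM values. The 3 endothelial markers summed to at most 0.11 in any group. The part of these markers in the results below was not tested.

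The promoters of the members were read from the RefSeq promoter set (GRCh38.p14, 250 bases before to 50 bases after each start), which holds 33 of the 40. They were searched on both strands for the C/EBP-ATF element TGATGNAA (TTNCATCA on the other strand), since that is the element through which ATF4 acts. It was found in 6 of 15 cytosolic promoters, 1 of 14 mitochondrial and 0 of 3 scaffold promoters, against 1270 of all 35116 promoters of the same length (3.62%). The 7 matches are shown because the genes that carry them are followed through the comparisons, each as 24 bases on the strand of the gene, 5′ to 3′, with the 8 matching bases in capitals.
IARS (chr9:92293695-92293718, reverse strand): tcagcgcgTTGCATCAcctccgtg
TARS (chr5:33440959-33440982, forward strand): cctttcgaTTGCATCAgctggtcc
NARS (chr18:57621807-57621830, reverse strand): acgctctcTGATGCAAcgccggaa
MARS (chr12:57488056-57488079, forward strand): ggttccggTTGCATCAgcgaggga
CARS (chr11:3057410-3057433, reverse strand): ggcggcggTTGCATCAgattctag
AARS (chr16:70289678-70289701, reverse strand): tctcgcagTTGCATCAgccaagtt
YARS2 (chr12:32756079-32756102, reverse strand): cacactgcTGATGGAAaaattaag

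In all 6 cytosolic matches the variable base gave TGATGCAA, or TTGCATCA read on the other strand. That form was found in 304 of the 35116 promoters (0.866%). It was singled out after these matches were seen, so setting them beside this share is no test. In IARS, TARS, NARS, MARS and CARS the match began within 14 bases of the annotated start, and in AARS 187 bases before it. A match shows only that these letters stand in the window. Equally, no match means only that they are missing from the window read for that gene, and other starts were not searched.

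The levels of the members were compared first in the Ctrl cells, in FPKM, which divides by a length taken for each gene. Cytosolic synthetases had a median of 56.4 FPKM and mitochondrial synthetases 5.32 FPKM, where the median of all protein-coding genes was 2.16 FPKM. AARS and SARS, which charge alanine and serine tRNA, led at 152 ± 4.01 and 150.3 ± 4.59 FPKM (SD, n = 3) and overlapped each other. QARS, the glutamine enzyme, followed at 113 ± 1.78 FPKM, below both of them in every sample.

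The lowest cytosolic enzyme by FPKM was HARS at 13.3 ± 0.396 (SD, n = 3), under the mitochondrial enzymes IARS2, SARS2 and RARS2. By counts HARS stood above SARS2 and RARS2 in Ctrl, at 2602 to 3451 against 1547 to 1950 and 1184 to 1543. The gene lengths behind FPKM are not given in the sources used here, and levels of different genes depend on them. The lowest member was AARS2, the mitochondrial alanine enzyme, at 1.99 ± 0.0513 FPKM (SD, n = 3). Of the 39 neighbours in this order, 21 had Ctrl values that overlapped. Among the scaffold genes AIMP2 stood at 23.9 ± 0.151 FPKM, AIMP1 at 10.3 ± 0.22 and EEF1E1 at 3.11 ± 0.27 (SD, n = 3).

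**Figure D1:**
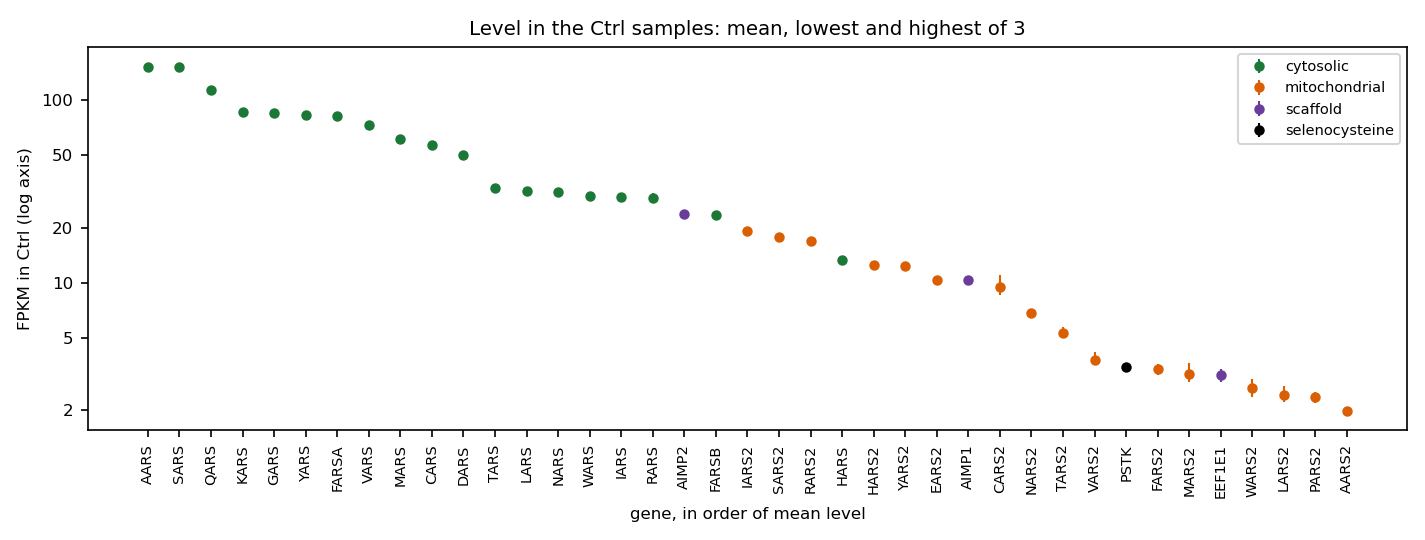
Mean FPKM in the 3 Ctrl samples (vertical log axis) of 39 of the genes in order of level, with bars from the lowest to the highest sample and colours for the class. Cytosolic enzymes fill the first 17 ranks, from 152 FPKM for AARS, and the lowest rank is AARS2 at 1.99 FPKM.

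The first comparison asked what changed in CRLM1-OE against the empty plasmid. Cytosolic synthetases fell: 18 of 19 were lower and none was higher, from -0.89 (IARS) to -0.12 (YARS) on the log2 scale, and VARS did not pass the test. Mitochondrial synthetases split, with 7 higher, 7 lower and 3 not past the threshold. AIMP2 and AIMP1 fell, and EEF1E1 and PSTK did not pass. In cultured cells read in bulk, less RNA per cell and fewer cells with much of it cannot be told apart.

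Calls required an adjusted p (Benjamini-Hochberg, over all 29846 genes tested) no larger than 0.05 in edgeR's quasi-likelihood test of 3 samples against 3. In all, 7 of the 40 members were higher, against 15.0% of all genes tested and 29.2% of abundant protein-coding genes, those whose mean count reached 100. Lower were 27 members, against 16.8% and 39.5%. No member also passed a fold change of 2, which 2.50% of all genes tested did upwards and 0.915% downwards, and 1.36% and 0.568% of abundant protein-coding genes. The median log2 fold change was -0.36 for cytosolic and 0.025 for mitochondrial synthetases, and 0.017 for all genes tested.

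IARS, the isoleucine enzyme and a member of the complex, had 17.4, 16.7 and 17.3 FPKM in the CRLM1-OE samples, 30.0, 29.5 and 28.4 in Ctrl and 43.5, 44.1 and 42.6 in Anti. All CRLM1-OE samples lay below all Ctrl samples, and all Anti samples above them. Its level in CRLM1-OE was 1.85-fold lower than in Ctrl (log2 fold change -0.89 ± 0.03 SE, edgeR adjusted p = 1.5e-195). IARS lies on the reverse strand at chr9:92210207-92293854 (GRCh38, GENCODE version 44) and shares no exon base with another annotated gene.

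WARS, the tryptophan enzyme, stands outside the complex. It had 17.6, 17.8 and 17.3 FPKM in CRLM1-OE, 30.3, 30.0 and 29.2 in Ctrl and 47.2, 46.9 and 46.8 in Anti. The groups were again apart, with CRLM1-OE lowest and Anti highest, and the log2 fold change against Ctrl was -0.88 ± 0.03 (SE, edgeR adjusted p = 3.8e-182). WARS lies at chr14:100333790-100376805 on the reverse strand, and 10.6% of its exon bases are also covered on the other strand, by WDR25 among others, which had 233 to 430 counts in any sample.

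TARS, the threonine enzyme, was at 20.7, 22.5 and 21.5 FPKM in CRLM1-OE, 34.3, 32.1 and 32.1 in Ctrl and 38.5, 38.7 and 38.0 in Anti. Its order was the same, with no overlap between groups. Against Ctrl the log2 fold change was -0.72 ± 0.029 (SE, edgeR adjusted p = 3.3e-138).

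LARS, the leucine enzyme of the complex, was at 22.2, 21.5 and 21.7 FPKM in CRLM1-OE, 32.7, 31.2 and 31.4 in Ctrl and 39.5, 39.9 and 40.8 in Anti. Here too CRLM1-OE was lowest and Anti highest in every sample. Its log2 fold change against Ctrl was -0.66 ± 0.028 (SE, edgeR adjusted p = 3.9e-116).

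The other cytosolic enzymes fell by less. NARS (asparagine), MARS (methionine), FARSA (a subunit of the phenylalanine enzyme), GARS (glycine) and CARS (cysteine) had log2 fold changes between -0.47 and -0.44, and QARS and DARS (aspartate) -0.36 and -0.34. Of the exon bases of MARS, 12.4% are covered on the other strand by further genes, DDIT3 among them. DDIT3 had 10399 to 15426 counts in any sample, against 5418 to 10072 for MARS. The log2 fold change of DDIT3 was -0.27 against Ctrl, 0.041 against Anti (not past the threshold) and -0.34 for Anti against Ctrl. AARS, SARS and FARSB, the other phenylalanine subunit, fell by 0.28, 0.26 and 0.24 on the log2 scale. HARS (histidine), RARS (arginine), KARS (lysine) and YARS (tyrosine) had the smallest called changes, -0.18, -0.14, -0.13 and -0.12, and these 4 missed the threshold when total counts were used without TMM factors or when limma was run on log2 FPKM. With total counts KARS, RARS and YARS turned to 0.009, 0.007 and 0.020, not past the threshold, and VARS (valine) from -0.023 to 0.12 (edgeR adjusted p = 1.4e-06).

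That scaling moved the median of all genes whose mean count reached 100 from -0.048 to 0.094, and the cytosolic median to -0.22. The 7 enzymes of the complex among the members (DARS, IARS, KARS, LARS, MARS, QARS and RARS) all fell, with a median of -0.36, as did 11 of the 12 cytosolic enzymes outside it, also with a median of -0.36. Class I and class II enzymes, the structural families of synthetases, fell in 8 of 9 and 10 of 10 cytosolic members, with medians of -0.44 and -0.31.

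**Figure D2:**
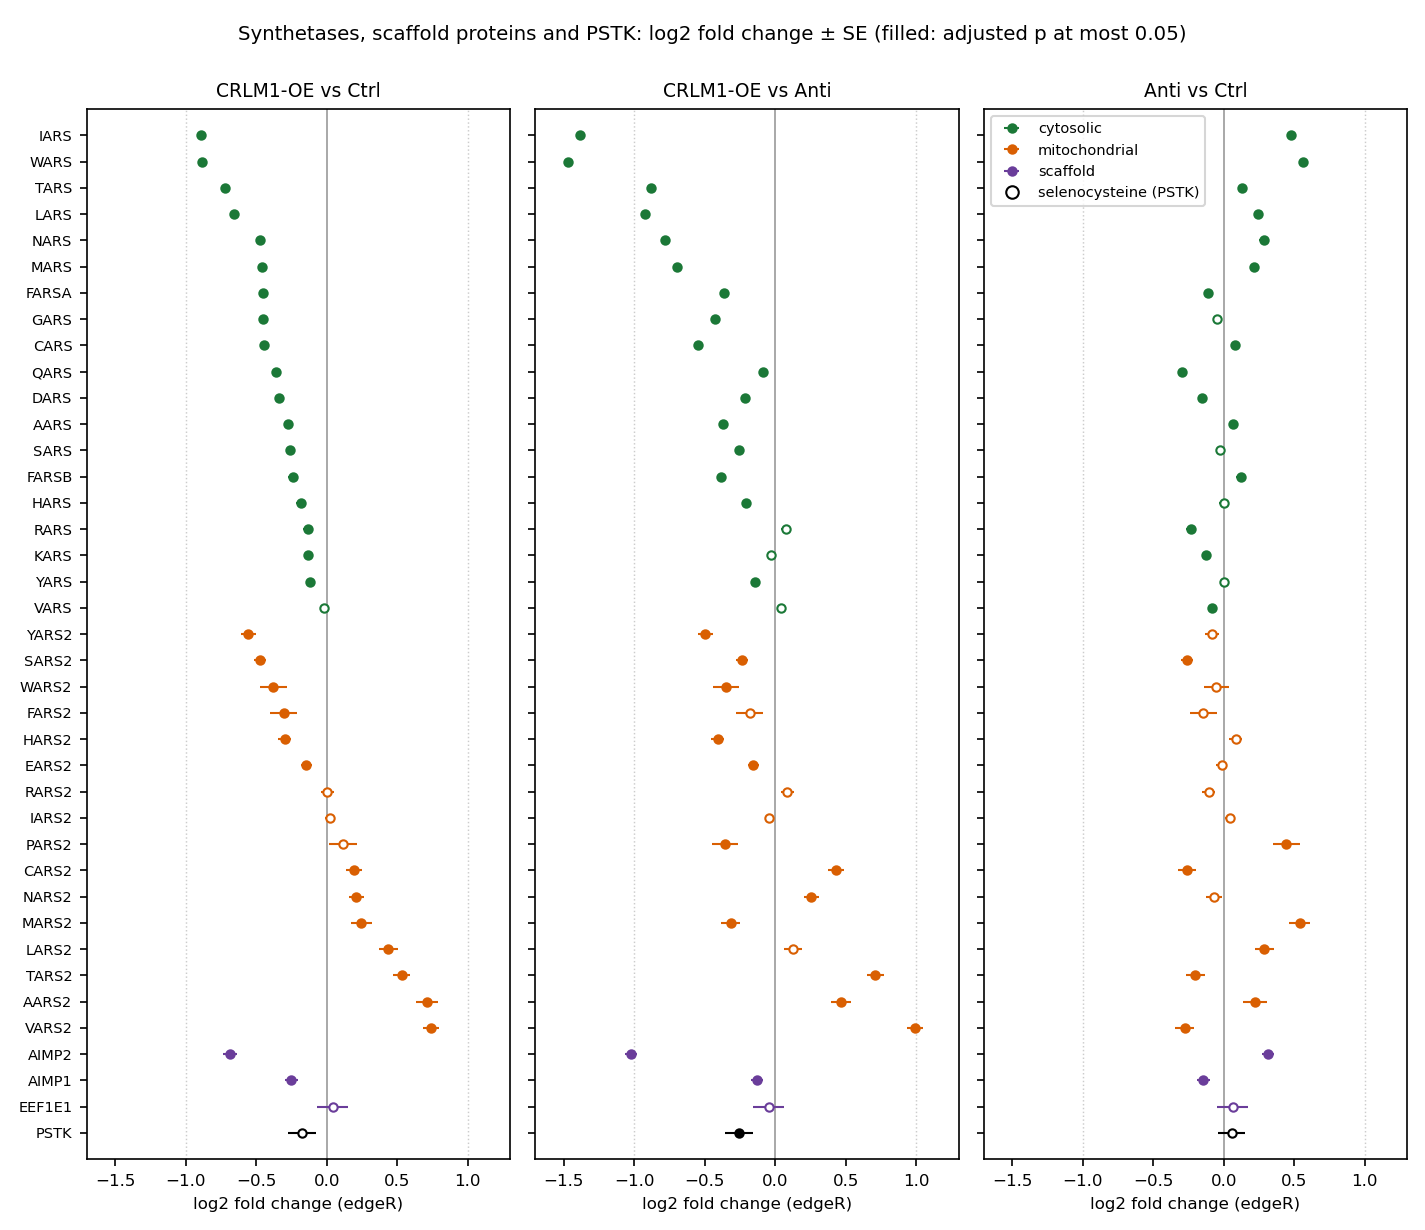
Log2 fold change ± SE from edgeR (horizontal axis) of 39 of the genes in CRLM1-OE against Ctrl, CRLM1-OE against Anti and Anti against Ctrl, filled where the adjusted p is at most 0.05, with dotted lines at a 2-fold change. Cytosolic enzymes lie left of 0 in the panel of CRLM1-OE against Ctrl, while mitochondrial enzymes run from -0.56 (YARS2) to 0.74 (VARS2).

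Among mitochondrial enzymes, VARS2 (valine) rose the most. It had 6.39, 7.21 and 6.95 FPKM in CRLM1-OE, 4.16, 3.54 and 3.59 in Ctrl and 3.47, 3.34 and 3.15 in Anti. Every CRLM1-OE sample exceeded every other sample, and the log2 fold change against Ctrl was 0.74 ± 0.056 (SE, edgeR adjusted p = 4.8e-39). VARS2 lies at chr6:30914205-30926459 on the forward strand, and 63% of its exon bases are shared with a further gene model of the same strand in GENCODE version 44, ENSG00000288473, for which no count was analysed here.

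AARS2 had 3.7, 3.57 and 3.29 FPKM in CRLM1-OE, 1.98, 1.95 and 2.05 in Ctrl and 2.42, 2.52 and 2.47 in Anti. CRLM1-OE was again highest without overlap, with Anti between. Its log2 fold change against Ctrl was 0.71 ± 0.077 (SE, edgeR adjusted p = 4e-19).

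TARS2 and LARS2, the threonine and leucine enzymes of mitochondria, rose by 0.53 and 0.44 on the log2 scale, while their cytosolic partners fell. MARS2, NARS2 and CARS2 rose by 0.25, 0.21 and 0.19. The calls of MARS2 and CARS2 were lost with 1 sample left out: MARS2 without CRLM1-OE replicate 1 (log2 fold change 0.20) or Ctrl replicate 2 (0.19), and CARS2 without Ctrl replicate 3 (0.14).

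Among the 7 lower mitochondrial enzymes were YARS2 (-0.56), SARS2 (-0.47), WARS2 (-0.38), FARS2 (-0.30), HARS2 (-0.30) and EARS2 (-0.15). FARS2 missed the threshold without Ctrl replicate 1 (-0.25), EARS2 without Ctrl replicate 2 (-0.11), and the cytosolic RARS without Ctrl replicate 1 (-0.084). EARS2 and FARS2 were also lost with total counts and with limma on FPKM, and WARS2 with limma. In SARS2, 48.2% of exon bases are shared with a readthrough model on the same strand that had 113 to 192 counts in any sample. In YARS2, 18.1% are covered on the other strand by ENSG00000286950, for which no count was analysed here. IARS2, PARS2 and RARS2 had log2 fold changes of 0.025, 0.11 and 0.002, none past the threshold, and each passed as higher with total counts (0.17, 0.25 and 0.14).

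AIMP2, the scaffold protein that holds the complex together, had 17.0, 15.9 and 15.3 FPKM in CRLM1-OE, 23.7, 23.9 and 24.0 in Ctrl and 31.1, 31.1 and 32.8 in Anti. CRLM1-OE was lowest and Anti highest in every sample. Its log2 fold change against Ctrl was -0.68 ± 0.049 (SE, edgeR adjusted p = 1.8e-42).

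Of the exon bases of AIMP2 (chr7:6009255-6023834, forward strand), 29.1% are also covered on the other strand by EIF2AK1, a kinase gene, and whether strand was used in counting is not given in the sources used here. EIF2AK1 itself had 5804 to 8674 counts in any sample, against 829 to 1953 for AIMP2. The log2 fold change of EIF2AK1 was -0.10 against Ctrl, 0.20 against Anti and -0.32 for Anti against Ctrl. AIMP1 fell by 0.25 on the log2 scale, a call lost with total counts (-0.11, edgeR adjusted p = 0.051), and EEF1E1 and PSTK had values of 0.044 and -0.18 that did not pass (adjusted p = 0.81 and 0.19).

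**Figure D3:**
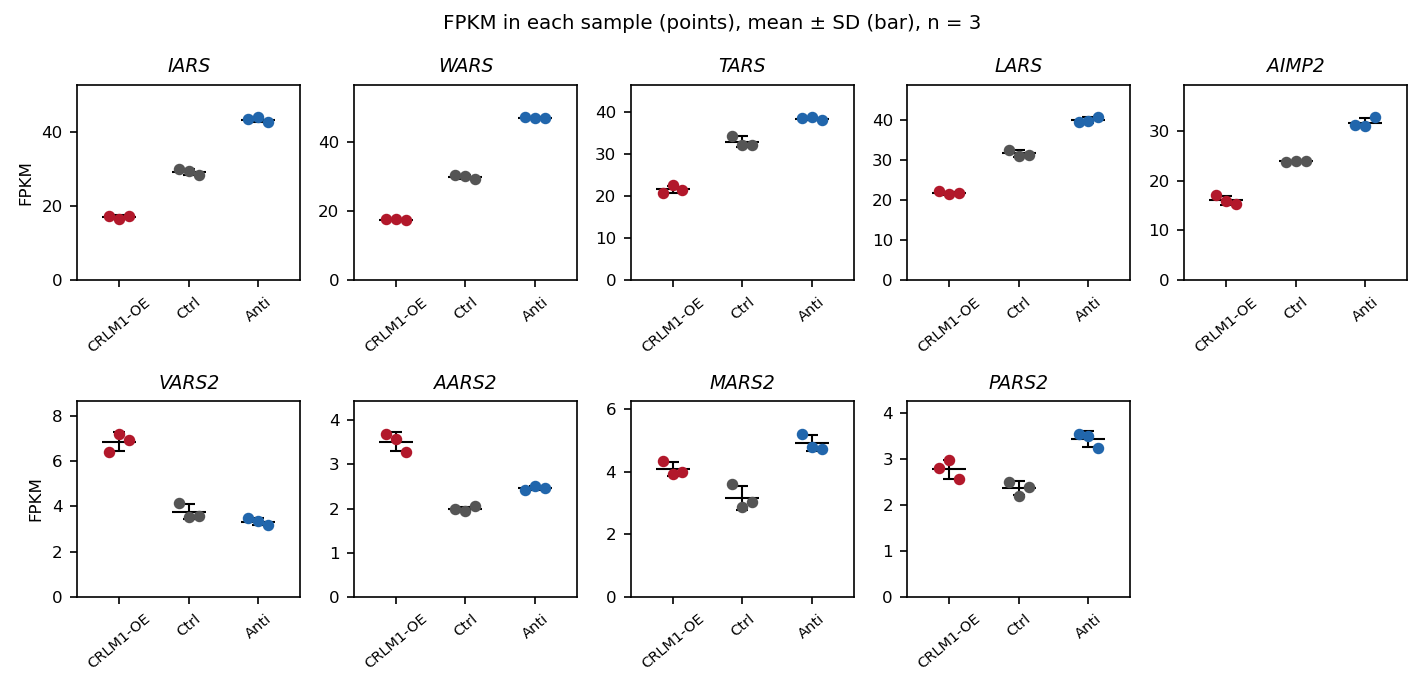
FPKM (vertical axis, from 0) in each of the 9 samples for 9 genes with large changes, with points for samples and bars for the mean ± SD of 3. IARS, WARS, TARS, LARS and AIMP2 are lowest in CRLM1-OE and highest in Anti, whereas VARS2 and AARS2 are highest in CRLM1-OE.

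The comparison with Anti asked whether the same held against cells carrying the antisense plasmid. Cytosolic synthetases were lower in 16 of 19 and higher in none, and 3 members passed a fold change of 2, all downwards: WARS, IARS and AIMP2. Mitochondrial synthetases were higher in 5 of 17, lower in 8 and not past the threshold in 4. Those counts are not far from the shares of abundant protein-coding genes that follow. In all, 5 members were higher, against 17.1% of the 30183 genes tested and 33.8% of the abundant protein-coding genes, and 27 were lower, against 18.5% and 40.9%. The median log2 fold change was -0.37 for cytosolic and -0.16 for mitochondrial synthetases, and -0.023 for all genes tested.

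WARS was 2.76-fold lower in CRLM1-OE than in Anti (log2 fold change -1.47 ± 0.026 SE) and IARS 2.62-fold lower (-1.39 ± 0.026 SE), each with an edgeR adjusted p of 1e-300, the smallest value written. AIMP2 was 2.03-fold lower (-1.02 ± 0.045 SE, edgeR adjusted p = 3.6e-110). These 3 of 40 compare with 2.56% of all genes tested and 2.35% of abundant protein-coding genes that were at least 2-fold lower. Without CRLM1-OE replicate 3 the value of AIMP2 was -0.98, and 2 members then passed. Over all 15 alternatives AIMP2 came as near to 0 as -0.94, so that fit was not the only one in which it missed a fold change of 2.

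LARS, TARS, NARS and MARS followed at -0.92, -0.88, -0.78 and -0.69, then CARS (-0.55), GARS (-0.43), FARSB (-0.38), AARS (-0.37) and FARSA (-0.36). SARS, DARS, HARS, YARS and QARS were lower by smaller amounts, from -0.26 to -0.085, and the call of QARS was lost with total counts and with limma on FPKM. KARS (-0.030), VARS (0.039) and RARS (0.075) did not pass. Among the 15 alternatives VARS did not pass in 7 and RARS in 8, and in the others they were called higher, at up to 0.098 and 0.13 with total counts. Of the fits with 1 sample left out, that without CRLM1-OE replicate 3 called both (RARS 0.091, VARS 0.063).

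VARS2 was 1.99-fold higher than in Anti, with a log2 fold change of 0.99 ± 0.057 (SE, edgeR adjusted p = 5.8e-67), just inside a fold change of 2, which 3.09% of all genes tested and 1.83% of abundant protein-coding genes passed upwards. It passed that limit in the fits without CRLM1-OE replicate 1 (1.04), Anti replicate 1 (1.02) or Anti replicate 2 (1.01). TARS2 was higher by 0.71, AARS2 by 0.47, CARS2 by 0.43 and NARS2 by 0.26 on the log2 scale.

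Among the 8 mitochondrial enzymes lower than in Anti were YARS2 (-0.50), HARS2 (-0.41), PARS2 (-0.36), WARS2 (-0.35), MARS2 (-0.31), SARS2 (-0.24) and EARS2 (-0.16). Among the remaining members AIMP1 (-0.13) and PSTK (-0.26) were called lower but not in every fit. AIMP1 was lost without CRLM1-OE replicate 2 (-0.11), CRLM1-OE replicate 3 (-0.12), Anti replicate 2 (-0.11) or Anti replicate 3 (-0.092), and PSTK without CRLM1-OE replicate 3 (-0.18) or Anti replicate 2 (-0.24). FARS2 (-0.18) passed only without Anti replicate 1 (-0.28). LARS2 (0.13), RARS2 (0.087) and IARS2 (-0.042) did not pass, and with total counts LARS2 and RARS2 were called higher (0.18 and 0.15).

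The controls also differed from each other. Between Anti and Ctrl, 9 cytosolic synthetases were higher and 6 lower in Anti, with a median log2 fold change of 0.002, and 5 mitochondrial synthetases were higher against 4 lower (median -0.052). In all, 15 members were higher, against 11.5% of the 29714 genes tested and 25.7% of the abundant protein-coding genes, and 11 were lower, against 12.2% and 29.2%. The 11 of 40 lower, and the 5 higher and 4 lower of 17 mitochondrial synthetases, are near the shares of abundant protein-coding genes. No member passed a fold change of 2, which 0.683% of all genes tested did upwards and 0.380% downwards, and 0.0817% and 0.0272% of abundant protein-coding genes.

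WARS (0.56 ± 0.026 SE, edgeR adjusted p = 1e-97), IARS (0.48 ± 0.026, 1.2e-72 in the same test) and AIMP2 (0.32 ± 0.043, 2.1e-12) were higher in Anti on the log2 scale.

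MARS2, the mitochondrial methionine enzyme, had 4.34, 3.92 and 3.99 FPKM in CRLM1-OE, 3.61, 2.87 and 3.02 in Ctrl and 5.22, 4.8 and 4.74 in Anti. It was highest in Anti without overlap, by 0.54 ± 0.073 over Ctrl (SE, edgeR adjusted p = 3e-12).

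PARS2, the mitochondrial proline enzyme, had 2.8, 2.98 and 2.57 FPKM in CRLM1-OE, 2.51, 2.2 and 2.4 in Ctrl and 3.56, 3.51 and 3.25 in Anti. Anti was again highest in every sample, by 0.45 ± 0.094 over Ctrl (SE, edgeR adjusted p = 1.8e-05).

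Placed side by side, and sharing samples, the comparisons sort the cytosolic enzymes into few patterns. How many of all genes show each pattern was not counted, so whether a pattern is unusual was not tested. AARS, CARS, FARSB, IARS, LARS, MARS, NARS, TARS and WARS were lowest in CRLM1-OE and highest in Anti, with all 3 differences past the threshold. DARS, FARSA and QARS were lower in CRLM1-OE than in each control and lower in Anti than in Ctrl. GARS, HARS, SARS and YARS were lower in CRLM1-OE than in each control without a called difference between the controls, KARS and RARS were lower than Ctrl in both of the other groups, and VARS was called only in Anti against Ctrl (-0.085). The calls of DARS, FARSA, KARS and VARS between the controls were lost with total counts and with limma on FPKM. With total counts SARS (0.079), HARS (0.10) and YARS (0.11) were called higher in Anti than in Ctrl, and SARS then had all 3 differences of the first pattern.

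The element shown above can be set beside these patterns. Of the 9 enzymes of the first pattern, 8 had a promoter in the set, and 6 of these (AARS, CARS, IARS, MARS, NARS and TARS) held the element, while FARSB and WARS did not and LARS had no entry. Of the other cytosolic enzymes, 7 had a promoter (FARSA, GARS, HARS, KARS, QARS, RARS and SARS), and 0 of the 7 held it. SARS, which joins the first pattern with total counts, is among those without the element. YARS2, the only match among the 14 mitochondrial promoters, was lower in CRLM1-OE than in each control and not called between the controls (-0.082). These counts were made on genes already sorted by their changes and carry no test.

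A cytosolic and a mitochondrial enzyme were compared for 13 amino acids. The log2 ratio of their FPKM within a sample does not depend on how samples are scaled to each other, unlike a fold change. In 10 of 13 pairs the ratio was lower in every CRLM1-OE sample than in every Ctrl sample, and in 3 it was higher (HARS, SARS and YARS over their partners). Against Anti it was lower in 9, higher in 2 (HARS and YARS) and overlapping in 2 (RARS and SARS). The median difference over pairs was -0.68 against Ctrl and -0.96 against Anti. The share of all gene pairs whose ratios keep the groups apart was not counted, and single genes, scaled with TMM factors, are a different measure. For single genes, the groups did not overlap in 19.3% of all genes tested downwards and 18.3% upwards against Ctrl. Against Anti the shares were 21.0% and 20.1%. Among abundant protein-coding genes these shares were 41.6% and 31.1%, and 43.0% and 35.0%.

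TARS over TARS2 had the largest shift from Ctrl, with log2 ratios of 1.25, 1.41 and 1.45 in CRLM1-OE, 2.59, 2.65 and 2.64 in Ctrl and 2.89, 3.08 and 2.91 in Anti. The ratio thus went from 6.17-fold in Ctrl to 2.59-fold in CRLM1-OE. IARS over IARS2 was -0.29, -0.31 and -0.33 in CRLM1-OE, 0.58, 0.59 and 0.66 in Ctrl and 1.06, 1.03 and 1.02 in Anti. It was the only pair in which the cytosolic enzyme fell under the mitochondrial one in CRLM1-OE.

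LARS over LARS2 and AARS over AARS2 shifted by -1.10 and -0.98 from Ctrl. YARS over YARS2 moved the other way, from 2.74 ± 0.048 in Ctrl to 3.18 ± 0.064 in CRLM1-OE (log2 ratio, SD, n = 3). With 3 samples a side, the smallest two-sided p of an exact permutation test on 1 ratio is 0.1.

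**Figure D4:**
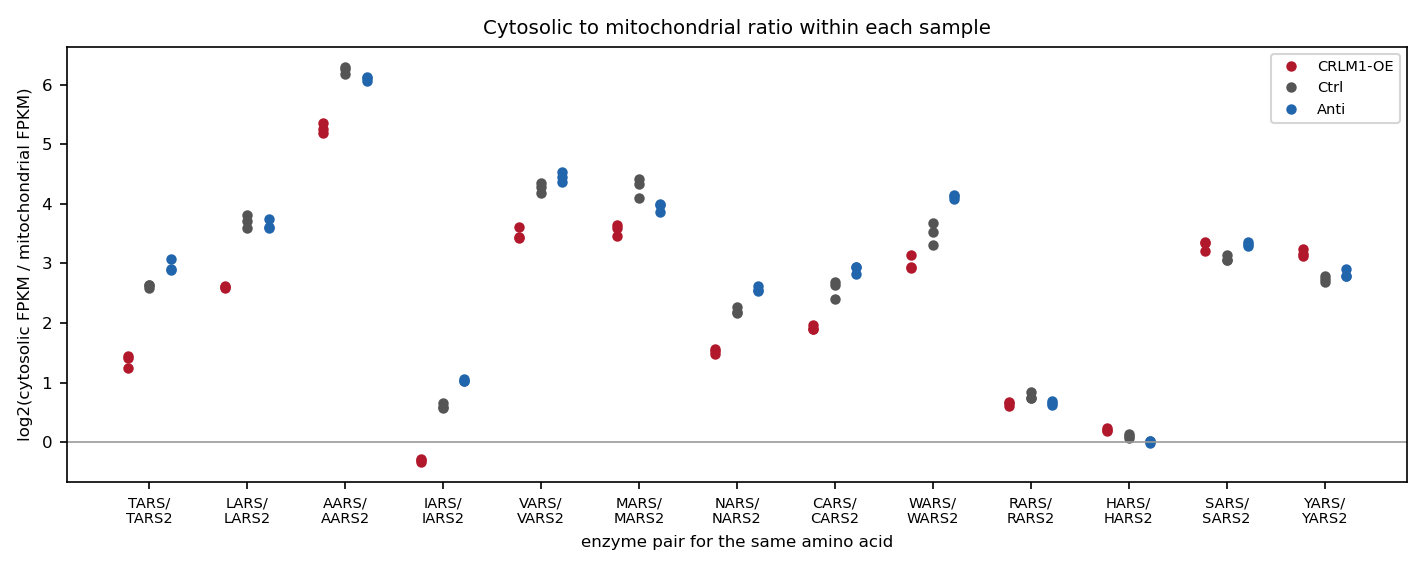
Log2 of cytosolic over mitochondrial FPKM (vertical axis) in each of the 9 samples for 13 enzyme pairs, in order of the difference between CRLM1-OE and Ctrl. CRLM1-OE points lie under the Ctrl points in 10 pairs, with the widest gap for TARS over TARS2, and above them for HARS, SARS and YARS.

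Summed over genes, cytosolic synthetases came to 1044 ± 10.9 FPKM in CRLM1-OE, against 1211 ± 26.3 in Ctrl and 1302 ± 2.08 in Anti (SD, n = 3). Mitochondrial synthetases summed to 141 ± 3 FPKM, 134 ± 3.87 and 139.6 ± 1.47 in the same order (SD, n = 3). The cytosolic sum was thus 7.29, 7.48 and 7.48 times the mitochondrial sum in the CRLM1-OE samples, 9.01, 9 and 9.16 times in Ctrl and 9.43, 9.26 and 9.3 times in Anti. CRLM1-OE was lowest in every sample, and Anti highest. All members together took 0.411% to 0.414% of counts in CRLM1-OE, 0.456% to 0.472% in Ctrl and 0.511% to 0.513% in Anti.

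EPRS, the glutamate and proline enzyme of the complex, moved as the cytosolic members did. It had 20.8, 20.9 and 20.6 FPKM in CRLM1-OE, 30.9, 29.9 and 28.5 in Ctrl and 32.7, 33.7 and 33.8 in Anti, with CRLM1-OE lowest in every sample. Its log2 fold change was -0.64 ± 0.028 against Ctrl (SE, edgeR adjusted p = 3.6e-109) and -0.73 ± 0.026 against Anti (edgeR adjusted p = 2.7e-178). Between the controls it was 0.074 ± 0.026 (edgeR adjusted p = 0.022), a call that 3 of 15 alternatives did not keep.

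Of the 10 other genes of tRNA charging and its proofreading, EPRS included, CRLM1-OE exceeded Ctrl in 1 and fell under it in 4, and 5 did not pass. Of abundant protein-coding genes 29.2% were higher and 39.5% lower in that comparison, and 33.8% and 40.9% against Anti, so that 4 of 10 lower is near the share of all such genes. MTFMT, which formylates the mitochondrial initiator tRNA, rose by 0.34, and QRSL1 and GATC, subunits of the mitochondrial enzyme that makes glutamine on its tRNA, fell by 0.37 and 0.32 on the log2 scale. Against Anti 2 were higher and 7 lower, among them SEPSECS (-0.55), which makes selenocysteine on its tRNA, and DTD2 (-0.46), a proofreading deacylase.

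Of the 8 factors that carry charged tRNA to the ribosome or move it on, 6 were lower and none higher than Ctrl, beside 39.5% and 29.2% of abundant protein-coding genes. EEF1A1 and EEF1A2, the carriers themselves, fell by 0.37 and 0.39 on the log2 scale, EEF1B2, a subunit of their exchange factor, by 0.41, and GFM1, a mitochondrial elongation factor, by 0.40. Against Anti 5 were lower, with GFM1 at -0.91 and EEF1B2 at -0.35, and 2 higher, among them TUFM (0.28), the mitochondrial carrier, beside 40.9% and 33.8% of abundant protein-coding genes.

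Of 21 genes of the amino acid response, 20 were tested, of which 15 fell and 3 rose against Ctrl (median -0.31 on the log2 scale), beside 39.5% and 29.2% of abundant protein-coding genes and 16.8% and 15.0% of all genes tested. STC2, a secreted glycoprotein, fell by 0.87, MTHFD2, a mitochondrial folate enzyme, by 0.72, and PHGDH, the first enzyme of serine synthesis, by 0.61. PPP1R15A, which directs dephosphorylation of the initiation factor eIF2 and so ends the response, rose the most, and SESN2 and CEBPB, named after their values were seen, rose by 0.37 and 0.21 on the log2 scale. PPP1R15A stood at 291, 295 and 289 FPKM in CRLM1-OE, 112, 111 and 109 in Ctrl and 118, 115 and 119 in Anti. Its log2 fold change was 1.29 ± 0.022 against Ctrl and 1.27 ± 0.019 against Anti (SE, edgeR adjusted p = 1e-300 in each).

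Against Anti 14 of the 20 were lower and 4 higher, with a median of -0.43, beside 40.9% and 33.8% of abundant protein-coding genes. CEBPB, higher than in Ctrl, was lower than in Anti (-0.18). PSAT1, of serine synthesis, was at -0.99, MTHFD2 at -0.95 and CEBPG, a partner of ATF4, at -0.85, whereas ALDH1L2 was higher by 0.85 at a level of 0.0667 FPKM or less in the mean of either group, a call that 9 of 14 alternatives did not keep. ATF4, named after its values were seen, was at -0.43 ± 0.021 against Ctrl and -0.45 ± 0.018 against Anti (SE, edgeR adjusted p = 2.7e-92 and 6.2e-136), and 0.000 ± 0.02 between the controls (adjusted p = 1).

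Amino acid transporters had the lowest medians of these lists. Of 8, 7 were lower and 1 higher than Ctrl, with a median of -0.82, and all 8 were lower than Anti, with a median of -0.91. Of abundant protein-coding genes 39.5% were lower than Ctrl and 40.9% lower than Anti. SLC7A11, the cystine transporter, had 1.71, 1.6 and 1.69 FPKM in CRLM1-OE, 5.09, 4.79 and 4.8 in Ctrl and 7.5, 7.49 and 7.24 in Anti, a log2 fold change of -1.67 ± 0.048 against Ctrl and -2.19 ± 0.043 against Anti (SE, edgeR adjusted p = 1.8e-257 and 1e-300).

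SLC1A4 (-1.30), a carrier of small neutral amino acids, and SLC6A9 (-1.11), a glycine transporter, were also at least 2-fold lower than Ctrl, and SLC38A2, which takes up neutral amino acids, was at -0.94. Over the alternatives the values of SLC1A4 and SLC6A9 came as near to 0 as -0.86 and -0.56, so neither kept a fold change of 2 against Ctrl in all of them, and SLC6A9 did not keep it against Anti (-0.92). Against Anti, SLC6A9 stood at -1.57, SLC1A4 at -1.55 and SLC3A2, the shared heavy chain of several transporters, at -0.96. Between the controls 6 of the 8 were higher in Anti, led by SLC7A11 (0.51), SLC7A1 (0.44), SLC6A9 (0.44) and SLC7A5 (0.31), as were 9 of the 20 amino acid response genes, led by PSAT1 (0.39), CEBPB (0.37) and ASNS (0.36). In that comparison 4 of the 10 charging genes and 1 of the 8 delivery factors were higher, with SEPSECS at 0.55 and GFM1 at 0.49, and 1 and 6 were lower. Of abundant protein-coding genes 25.7% were higher and 29.2% lower in Anti than in Ctrl.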

How the data were processed

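Library preparation used the KAPA RNA HyperPrep kit with 151 nt paired-end reads. The authors aligned reads with TopHat2 to GRCh38 and Gencode version 23, allowing 4 mismatches, and deposited unnormalized counts of uniquely mapped reads per gene. The authors also deposited FPKM, scaled for length and mapped fragments. Both cover genes called expressed. bcl2fastq and edgeR are named in the submitters' processing notes. Strand and read-pair handling are not given in the sources used here.

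Here the counts entered edgeR (version 4.0.16 under R 4.3.3, with TMM factors, glmQLFit and glmQLFTest) on the 6 samples of each comparison, for genes with at least 1 count, with Benjamini-Hochberg adjustment over all of them. The p values measure the spread between these samples as each fit models it, and their size differed widely between fits. Adjusted p below 1e-300 is written as 1e-300. The alternatives were RLE factors, total counts, filterByExpr, at least 10 counts in every sample, DESeq2 1.42.0, limma 3.58.1 on log2 values of the deposited FPKM with 0.1 or 1 added, a fit of all 9 samples, a replicate block and each sample left out in turn. The edgeR, DESeq2 and limma fits were tested on simulated data with the same dispersion for every gene and changes planted in abundant genes. The planted changes were larger than many called here, and smaller ones were not tested. Members and gene lists were chosen with earlier results of these data known. Values in every sample were given for members past a fold change of 2 and for the 6 with the largest called change in each comparison, and in each list up to 4 genes were named likewise. The values of 1 member, which is in the counts and medians but in no pair or figure, are not reported here. Positions and overlaps came from GENCODE version 44. Python 3.11.15, pandas 2.3.3 and matplotlib 3.10.9 were used.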

Additional observations from a re-analysis of the deposited data

How the results depend on the processing

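Of the 92 calls of members over the 3 comparisons, 69 were kept under all 15 alternatives and 23 were lost under at least 1, 12 of them when a single sample was left out. A further 52 values that missed the threshold with and without the change of setting changed sign. The size of the adjusted p depended on the fit. For IARS against Ctrl it was 1.5e-195 in the main edgeR fit and 2.1e-05 with limma on log2(FPKM + 1), its largest value over the alternatives. For AARS these values were 2.4e-38 and 0.0024. For both genes filterByExpr also gave larger values, the fit of all 9 samples and the replicate block gave smaller ones, and the call was kept throughout. Total counts without factors and limma on FPKM moved the most values. With total counts, 11 members were higher in CRLM1-OE than in Ctrl, 9 were higher than in Anti, and 5 were lower in Anti than in Ctrl. The cytosolic medians became -0.217 against Ctrl, -0.312 against Anti and 0.107 for Anti against Ctrl, and the mitochondrial medians 0.166, -0.097 and 0.052, the last a reversal. KARS (0.009), RARS (0.007), YARS (0.020) and VARS (0.118) reversed against Ctrl, and HARS (0.104), SARS (0.079) and VARS (0.020) for Anti against Ctrl, where VARS was also 0.008 with limma at either offset. Limma on log2(FPKM + 0.1) gave cytosolic medians of -0.243, -0.325 and 0.093 and mitochondrial medians of 0.141, -0.109 and 0.035 in the same order, and log2(FPKM + 1) gave -0.241, -0.323 and 0.092 and 0.135, -0.100 and 0.025. With these offsets 8 members were higher than in Anti in each, and 3 and 2 were lower in Anti than in Ctrl. A minimum of 10 counts in every sample gave 9 higher than in Anti. VARS2 passed a fold change of 2 against Anti, 1 member in place of 0, with RLE factors, total counts, filterByExpr, the minimum of 10 counts, DESeq2 and limma at 0.1. The cause of these changes was not tested beyond the shift of the median of all genes given above.

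With each sample left out in turn, members higher ranged from 6 to 7 against Ctrl, 5 to 7 against Anti and 14 to 15 for Anti against Ctrl, and members lower from 25 to 27, 25 to 28 and 8 to 11. Members at least 2-fold higher than in Anti ranged from 0 to 1 and lower from 2 to 3. The mitochondrial median ranged from 0.005 to 0.067 against Ctrl, highest without Ctrl replicate 1, from -0.161 to -0.070 against Anti, highest without Anti replicate 2, and from -0.091 to -0.027 for Anti against Ctrl, lowest without Ctrl replicate 1 and highest without Ctrl replicate 2. The cytosolic median ranged from -0.372 to -0.341, from -0.379 to -0.358 and from 0.002 to 0.025. Between the controls, calls were lost for AARS2 (0.200 to 0.234 with any of 5 samples left out, Ctrl replicate 3 being the exception), AIMP1 (-0.126 without Ctrl replicate 2 and -0.092 without Anti replicate 1), TARS2 (-0.147 without Ctrl replicate 1 and -0.156 without Anti replicate 2), CARS2 (-0.136) and VARS2 (-0.193), the last 2 without Ctrl replicate 1.

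With the replicate number as a block, 7 members were higher and 27 lower against Ctrl, 5 and 27 against Anti, and 15 and 11 for Anti against Ctrl. Samples of equal number were not paired in the labels, their deviations from the group means correlated between -0.0873 and 0.0696, and not every sample correlated best with its own number.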
